A study of Mus musculus with 20 samples.

Results

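The genes described are 9 components and targets of the Notch pathway, namely the receptors Notch2 and Notch3, the DNA-binding factor Rbpj, the coactivator Maml1, and the targets Hes1, Hes5, Hey1, Dtx1 and Nrarp. They were taken from the 19607 genes of an expression array by their symbols alone. A gene's probe sets are those that the platform annotation assigns to that symbol and to no other, which gave 112 probe sets for the 9 genes. Notch2 has 32 of them, Notch3 29, Dtx1 15, Rbpj 13, Maml1 7, Hey1 5, Hes1 4, Hes5 4 and Nrarp 3. The study asked how loss of Gfi1, which encodes a zinc finger repressor of transcription, alters expression in irradiated thymocytes and in tumours derived from thymocytes. It holds 20 arrays of C57BL/6 mice in 8 groups. Mediastinal tumours of ENU-treated mice that carried a Notch transgene, labelled Notch1-CT (Notch tumours), gave 2 Gfi1 KO and 2 WT arrays, and tumours of mice treated with the mutagen ENU alone (ENU tumours) gave 3 KO and 3 WT arrays. Irradiated thymocytes gave 3 KO and 3 WT arrays, and untreated thymocytes 2 KO and 2 WT arrays. All tumour mice, WT included, carried Gfi1 f/f and received ENU and, once a tumour was seen by ultrasound, pIpC, which induces Mx1Cre and is itself an inducer of interferon. Tumours labelled KO came from mice that also carried Mx1Cre, which is not specific to T cells, and cells were taken about 2 to 3 weeks after pIpC. The promoter of the Notch transgene, the Gfi1 allele of the KO thymocytes, the radiation dose and the time after it were not given in any source used here.

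Notch receptors are cut when a ligand on a neighbouring cell binds them, and the freed intracellular part enters the nucleus. There it joins RBPJ, which otherwise sits on DNA with corepressors, and Mastermind-like proteins such as MAML1, and the complex switches on target genes. In the thymus NOTCH1 commits progenitors to the T-cell lineage and acts at the early, double-negative stages, after which its signal declines. Activated Notch signalling is a known driver of T-cell leukaemia in mouse and human, and HES1, DTX1, NRARP and NOTCH3 are among its known targets in T cells.

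Values are log2 signals, and a gene's value on an array is the median of its probe sets, each first set relative to its own mean across arrays. A fold change holds only if the deposited values are base 2, which they are read as here. Array medians over all probe sets lay between 9.08 and 9.27. Hey1 lay above the level taken as dim, the 40th percentile of the genes of an array, on 6 of the 20 arrays, Nrarp on 13 and Hes1 on 17, and the other 6 genes on all 20. Markers of the T lineage were high in all groups, but KO Notch tumour 2 stood apart from the other tumours. Its values correlated with those of KO Notch tumour 1 at 0.87, against 0.936 to 0.988 within the other groups. It lay above the other 9 tumours for 6 of the 6 B-cell markers measured, with Cd79a at 13.76 against 7.74 to 10.93 and Pax5 at 12.12 against 7.46 to 8.53. It lay below them for 8 of 9 T-lineage markers, with Cd3d at 8.44 against 10.90 to 12.24 and Thy1 at 10.02 against 12.88 to 13.62. Results that rest on this tumour are therefore given with and without it. In the tumours labelled KO, Gfi1 probe set 2 averaged 6.70 ± 0.56 in KO Notch tumours and 11.22 ± 0.30 in WT Notch tumours (SD, n = 2 each), but 10.85 ± 0.15 in KO ENU tumours and 11.12 ± 0.50 in WT ENU tumours (SD, n = 3 each). No Gfi1 probe set passed the test between the ENU groups, so their genotype is given as labelled. In untreated thymocytes it averaged 5.64 ± 0.03 in KO and 11.95 ± 0.17 in WT, but in irradiated thymocytes 12.73 ± 0.01 in KO and 11.50 ± 0.15 in WT, where 3 of the 8 Gfi1 probe sets were higher and 5 lower in KO. The KO thymocyte groups also differed from each other along the gene: probe sets 2 and 3 averaged 12.73 and 11.88 in irradiated KO against 5.64 and 8.55 in untreated KO, and probe sets 5 and 7 averaged 7.89 and 7.18 in irradiated KO against 11.44 and 11.09 in untreated KO. In WT thymocytes these 4 averaged 11.50, 10.90, 9.78 and 9.44 in irradiated and 11.95, 11.39, 10.37 and 9.89 in untreated arrays. Irradiation and this difference between the KO groups cannot be told apart, both in KO thymocytes and where the KO response is set against that of WT. In a mixed tissue, fewer cells of a type and less RNA per cell cannot be told apart.

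The stretch of 250 bases before the annotated start of 4 of the genes is shown here because 3 of them (Dtx1, Notch3 and Nrarp) are among the 4 genes that passed as higher in WT ENU tumours, the other being Hes1, and Hes5 is a Notch target that passed no test. No sequence is shown for Hes1 and Hey1. The sequences are those of RefSeq on GRCm38.p6, each 5′ to 3′ on the strand of its gene: Dtx1 at chr5:120711670-120711919, minus strand, Notch3 at chr17:32166891-32167140, minus strand, Nrarp at chr2:25180508-25180757, plus strand, and Hes5 at chr4:154960673-154960922, plus strand. Capitals mark matches to 3 motifs named after the lines.
Dtx1: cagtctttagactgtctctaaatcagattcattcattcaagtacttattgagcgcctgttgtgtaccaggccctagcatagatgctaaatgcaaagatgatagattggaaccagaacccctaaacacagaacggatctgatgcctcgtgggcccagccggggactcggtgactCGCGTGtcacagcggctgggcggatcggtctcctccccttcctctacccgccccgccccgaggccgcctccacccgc
Notch3: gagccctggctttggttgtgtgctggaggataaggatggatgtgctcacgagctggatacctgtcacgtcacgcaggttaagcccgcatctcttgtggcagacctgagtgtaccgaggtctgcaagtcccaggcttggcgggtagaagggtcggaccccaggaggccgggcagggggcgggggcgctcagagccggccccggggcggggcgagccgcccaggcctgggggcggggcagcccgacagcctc
Nrarp: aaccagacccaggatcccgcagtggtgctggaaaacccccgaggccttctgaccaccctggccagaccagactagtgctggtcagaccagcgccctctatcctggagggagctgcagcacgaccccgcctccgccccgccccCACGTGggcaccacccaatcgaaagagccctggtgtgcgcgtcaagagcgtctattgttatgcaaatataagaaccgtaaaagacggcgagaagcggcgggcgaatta
Hes5: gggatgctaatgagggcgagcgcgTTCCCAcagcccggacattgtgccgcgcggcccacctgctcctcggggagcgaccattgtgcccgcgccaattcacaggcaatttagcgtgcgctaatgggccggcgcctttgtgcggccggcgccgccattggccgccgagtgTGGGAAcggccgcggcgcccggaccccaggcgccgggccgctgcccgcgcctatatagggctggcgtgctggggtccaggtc
The core of the RBPJ motif was searched as TGGGAA, or TTCCCA on the other strand. It was found at 2 places of the Hes5 window, at positions -226 and -82 relative to the start, and in neither the Dtx1, the Notch3 nor the Nrarp window. Of all 32851 RefSeq promoter windows of 300 bases (250 before and 50 after the start), 25.6% hold it. A site bound by HES factors, searched as CACGCG or CGCGTG, was found at -77 in the Dtx1 window and at -42 in that of Notch2, which is not printed, and 9.27% of all windows hold it. The E-box CACGTG was found at -108 in the Nrarp window, and 7.15% of all windows hold it. Windows were found for 7 of the 9 genes. The RBPJ core was also found in both overlapping windows of Rbpj, and not in those of Notch2 and Maml1. The GFI1 core, searched as AAATCAC or GTGATTT, was in none of these windows and is in 3.2% of all. A match is a run of letters and not a measured binding site.

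**Figure D1:**
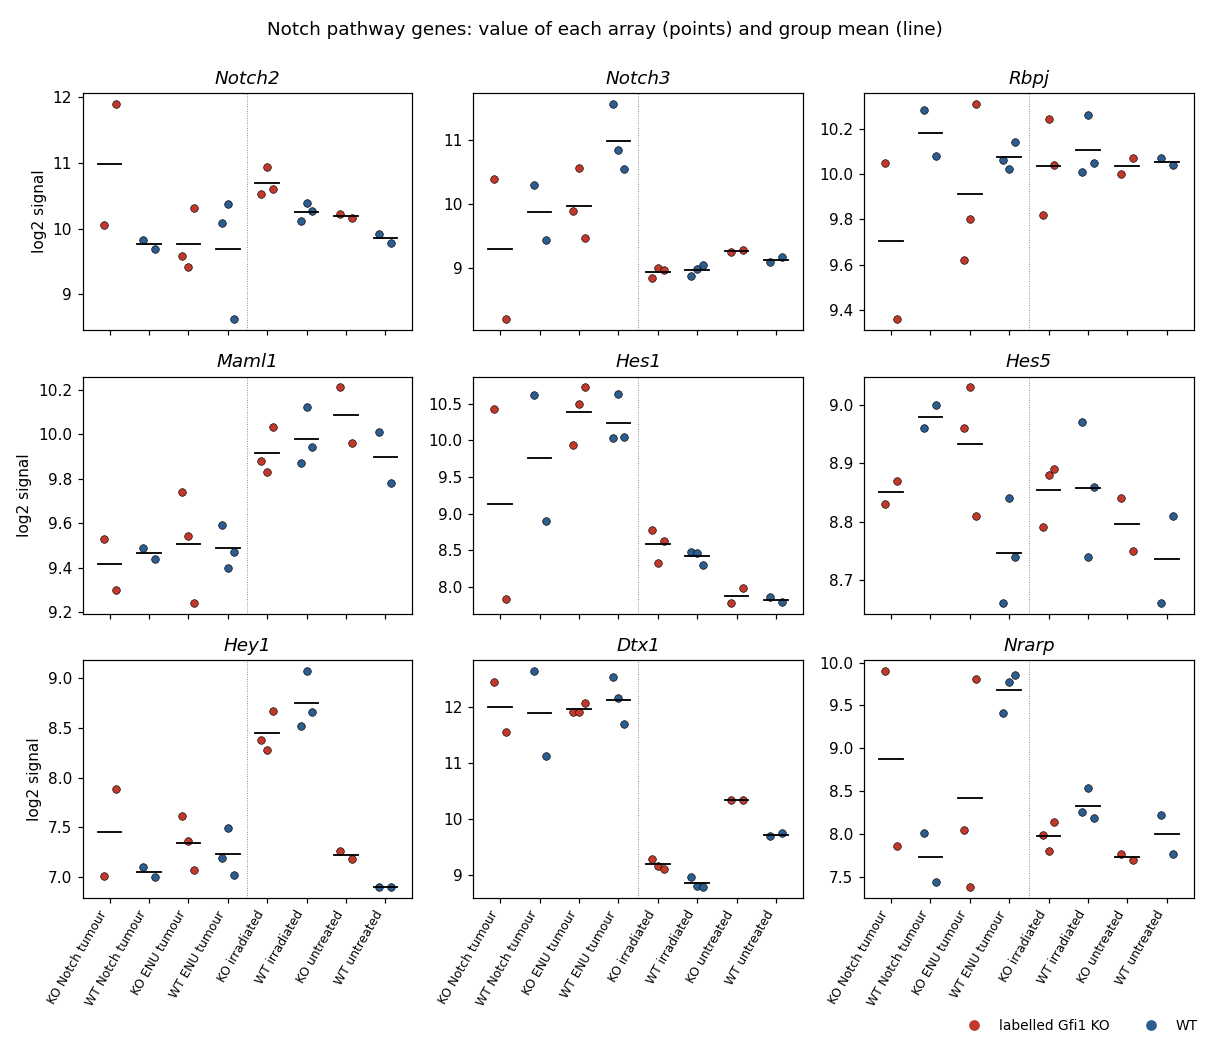
Log2 signal of the 9 genes (y axis, own range per panel) on each array (points) with the group mean (line), in the 8 groups along the x axis; red marks arrays labelled Gfi1 KO and blue WT, and the dotted line parts tumours from thymocytes. Dtx1 lay at 11.13 or above in all 10 tumours and at 10.35 or below in all 10 thymocyte arrays, and Hey1 was at 8.28 or above only in the 6 irradiated arrays.

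Across the 20 arrays the genes differed in how far they separated the conditions and in how much they varied, as the plot of member values by array shows. Dtx1, an E3 ubiquitin ligase of the Deltex family, ranged from 11.13 to 12.64 in the tumours and from 8.79 to 10.35 in the thymocytes, with no overlap. Maml1 was the reverse at a smaller scale, from 9.24 to 9.74 in the tumours and from 9.78 to 10.21 in the thymocytes. Of 13520 genes tested over all arrays, 1.1% were higher and 3.27% lower in every tumour than in every thymocyte array. The other 7 genes overlapped between tumours and thymocytes, Hes1 and Notch3 only through KO Notch tumour 2. Without that tumour Hes1 ranged from 8.90 to 10.72 in tumours, against 7.78 to 8.78 in thymocytes. Notch3 then ranged from 9.44 to 11.56 in tumours, against 8.84 to 9.28 in thymocytes. The share of all genes that separate without that tumour is not given here. Hes5, a repressor of the HES family best known in neural progenitors, stayed between 8.66 and 9.03 on every array.

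Nrarp, Hes1, Notch3, Notch2 and Dtx1 varied from tumour to tumour. The standard deviation within tumour groups was 0.96 for Nrarp, 0.94 for Hes1, 0.81 for Notch3, 0.81 for Notch2 and 0.56 for Dtx1, against a median of 0.25 over all genes. Within thymocyte groups the same genes had 0.20, 0.16, 0.08, 0.15 and 0.08, against a median of 0.12 over all genes. Of all genes tested in both sets, 97.1% had a lower spread in tumours than Nrarp, 97% than Hes1, 95% than Notch3 and 94.9% than Notch2. Hes5 was at the other end, with 0.08 in tumours and 0.09 in thymocytes, and 1.85% of genes varied less in tumours. Maml1, which separated tumours from thymocytes, had 0.17 in tumours, and 25.7% of genes varied less. Without KO Notch tumour 2 the standard deviations within tumour groups were 0.83 for Nrarp, 0.64 for Hes1, 0.55 for Notch3, 0.67 for Notch2, 0.55 for Dtx1, 0.17 for Maml1 and 0.09 for Hes5, against a median of 0.21 over all genes. The share of genes with a lower spread was then 97.4% for Nrarp, 94.6% for Hes1, 92.2% for Notch3, 95.4% for Notch2 and 5.29% for Hes5.

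Irradiation was compared with no treatment in each genotype, in KO between groups whose Gfi1 probe sets differed as given above. In KO thymocytes 5 of the 9 genes passed an adjusted p of 0.05 (limma, adjusted over 12747 genes), 3 higher and 2 lower. Of all genes 38.8% passed there, 15.1% higher and 23.7% lower, and the arrays of the groups did not overlap for 66.2%. In WT thymocytes 4 of the 9 passed, 3 higher and 1 lower. Of all genes 34.6% passed, 13% higher and 21.7% lower, and for 56.9% the arrays did not overlap. Hey1, Hes1 and Notch2 rose and Dtx1 fell after irradiation in both genotypes, and Notch3 fell in KO. Read against the share of all genes, these counts are not a result about the 9 genes as a set. Hey1 entered the test through its irradiated arrays alone, and without it 4 of 8 genes passed in KO and 3 of 8 in WT.

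Hey1, a repressor of the HES/HEY family that Notch signalling induces in many tissues, was high only after irradiation. Its values were 8.38, 8.28 and 8.67 in irradiated KO and 7.26 and 7.18 in untreated KO thymocytes. In WT they were 8.52, 9.07 and 8.66 in irradiated and 6.90 and 6.90 in untreated thymocytes. All irradiated arrays lay above all untreated ones, where Hey1 was below the dim level. Its measured means were 8.45 in irradiated against 7.22 in untreated KO (adjusted p = 6.07e-06) and 8.75 in irradiated against 6.90 in untreated WT thymocytes (adjusted p = 8.95e-08). Set against the dim level of the untreated arrays, a mean of 7.89 in KO and 7.88 in WT, Hey1 was at least 1.47-fold higher in irradiated KO and at least 1.82-fold higher in irradiated WT thymocytes. Of the 4 Hey1 probe sets bright enough to test, 3 passed in KO and 4 in WT. Over all probe sets 25.7% passed in KO and 20.4% in WT. The fitted differences of the Hey1 probe sets ran from 0.72 to 2.45 in KO and from 1.32 to 2.64 in WT. Because Hey1 entered the test through its irradiated arrays alone, these p-values and probe set counts set signal against dim values and are no separate support. Hey1 is also known as a gene of endothelium. The summed endothelial markers were 11.98 to 12.14 in irradiated KO against 11.93 to 11.96 in untreated KO arrays, and 11.98 to 12.12 in irradiated WT against 11.77 to 11.78 in untreated WT arrays. Of the 3 endothelial markers tested of 7, none rose and 1 fell in KO, and 2 rose in WT; Tek was dim on every array. The part of these cells in the result was not tested.

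Hes1, the repressor that carries much of the Notch signal in early T cells, rose as well. It had 8.78, 8.33 and 8.63 in irradiated KO and 7.78 and 7.99 in untreated KO thymocytes. In WT it had 8.48, 8.47 and 8.30 in irradiated and 7.87 and 7.79 in untreated thymocytes. The irradiated and untreated arrays did not overlap in either genotype. The difference was 0.70 ± 0.13 in KO (1.62-fold, adjusted p = 0.000423) and 0.59 ± 0.13 in WT (1.5-fold, adjusted p = 0.0019). Untreated KO array 1 (7.78) and untreated WT array 2 (7.79) lay under their dim levels of 7.86 and 7.91. Untreated KO array 2 (7.99) and untreated WT array 1 (7.87) lay just above theirs, 7.91 and 7.85. Both folds are therefore set against values near the dim level. At the level of single probe sets only 1 of the 4 was bright enough to test, and it differed by 0.68 in KO (adjusted p = 0.00358) and by 0.18 in WT (adjusted p = 0.338).

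Notch2, the receptor best known in B cells, had 10.53, 10.93 and 10.60 in irradiated KO and 10.22 and 10.16 in untreated KO thymocytes. In WT it had 10.12, 10.39 and 10.26 in irradiated and 9.92 and 9.78 in untreated thymocytes. Irradiated arrays were the higher ones in both genotypes without overlap. The difference was 0.50 ± 0.12 in KO (adjusted p = 0.00459) and 0.41 ± 0.12 in WT (adjusted p = 0.0176). In WT the call was lost without irradiated WT array 2 (0.34, adjusted p = 0.0519), untreated WT array 1 (0.48, adjusted p = 0.053) or untreated WT array 2 (0.34, adjusted p = 0.138). Of its 32 probe sets 15 passed in KO and 8 in WT, all of them higher. Over all probe sets 25.7% passed in KO and 20.4% in WT. Of the markers of cell types that also express Notch2, 5 of 6 B-cell markers fell in each genotype, and 6 of 6 tested macrophage and dendritic cell markers fell in KO and 5 of 6 in WT. Of the granulocyte markers 1 of 6 rose in KO and 6 of 6 fell in WT. The part of these cells in the irradiation results was not tested.

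Dtx1 fell after irradiation. It had 9.29, 9.17 and 9.12 in irradiated KO and 10.35 and 10.34 in untreated KO thymocytes. In WT it had 8.97, 8.81 and 8.79 in irradiated and 9.70 and 9.75 in untreated thymocytes. Every irradiated array lay below every untreated one, also across genotypes. The difference was -1.15 ± 0.10 in KO (2.21-fold lower, adjusted p = 2.75e-07) and -0.87 ± 0.10 in WT (1.83-fold lower, adjusted p = 6.23e-06). Its probe sets did not move alike. Of 14 tested, 10 fell and 1 rose in KO, over a range from -2.70 to 0.63. In WT 9 fell, over a range from -2.38 to 0.12. Over all probe sets 25.7% passed in KO and 20.4% in WT. Notch3, a receptor whose gene is itself a Notch target in T cells, had 8.84, 9.0 and 8.97 in irradiated KO and 9.25 and 9.28 in untreated KO thymocytes. That difference of -0.33 ± 0.10 passed (adjusted p = 0.0153), but not without irradiated KO array 1 (-0.28, adjusted p = 0.0571), untreated KO array 1 (-0.35, adjusted p = 0.0859) or untreated KO array 2 (-0.31, adjusted p = 0.117). In WT Notch3 differed by -0.16 ± 0.10 (adjusted p = 0.217).

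**Figure D2:**
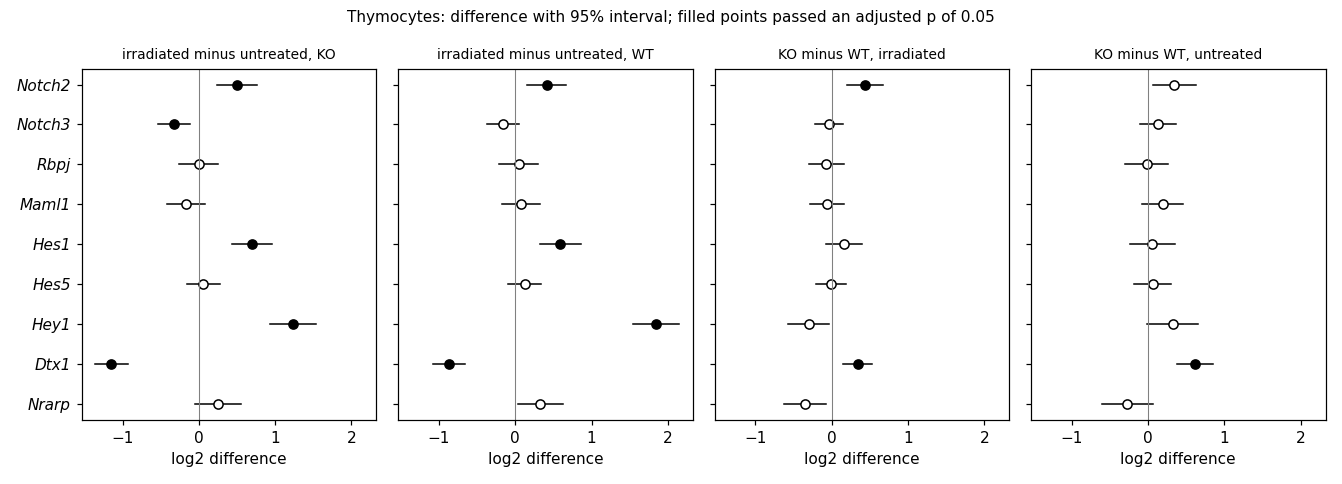
Log2 difference (x axis) with its 95% interval for each gene (y axis) in 4 thymocyte comparisons; filled points passed an adjusted p of 0.05. Hey1, dim in the untreated arrays, lay to the right at 1.23 in KO and 1.85 in WT and Dtx1 to the left at -1.15 and -0.87 after irradiation, and Dtx1 lay to the right in both KO against WT panels.

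Nrarp, an ankyrin repeat protein that binds the Notch complex and limits its signal, differed by 0.25 ± 0.14 in KO (adjusted p = 0.165) and 0.33 ± 0.14 in WT (adjusted p = 0.0825) after irradiation. With the mean in place of the median of its probe sets the difference passed, at 0.44 (adjusted p = 0.00503) in KO and 0.43 (adjusted p = 0.00664) in WT. None of its 3 probe sets was bright enough to test among thymocytes. Nrarp was under the dim level on both untreated KO arrays (7.76 and 7.69) and on untreated WT array 2 (7.77). Rbpj, Maml1 and Hes5 did not pass in either genotype, with 95% intervals that reached no further than -0.42 to 0.34. The untreated arrays carry file numbers that lie apart from those of the irradiated arrays in the labels, so irradiation and the order of the arrays cannot be told apart. With all 20 arrays in one fit, whose spread pools tumours and thymocytes, Hey1 alone among the 9 genes still passed in each genotype. Hey1 entered that fit, too, through its irradiated arrays alone.

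In untreated thymocytes, 1 of the 9 genes passed between KO and WT, higher in KO. Of all genes 12.3% passed, 6.79% higher in KO, and for 61.9% the 2 KO arrays did not overlap the 2 WT arrays. Dtx1 had 10.35 and 10.34 in KO against 9.70 and 9.75 in WT, and the groups did not overlap. The difference was 0.62 ± 0.11 (1.53-fold, adjusted p = 0.000916). Of its 14 tested probe sets 7 passed, all higher in KO, where 4.66% of all probe sets passed. Notch2 had 10.22 and 10.16 in KO against 9.92 and 9.78 in WT, a difference of 0.34 ± 0.14 that did not pass (adjusted p = 0.123). All 32 of its probe sets were on average higher in KO, by 0.02 to 0.62, and none passed alone. Probe sets of a gene are read on the same arrays and are not independent. Their shared direction, here and in the other comparisons, is not added evidence. Fitted on the 4 untreated arrays alone, Notch2 passed (adjusted p = 0.0119). Notch3 differed by 0.13, Hes1 by 0.05, Hes5 by 0.06, Nrarp by -0.27, Rbpj by -0.02 and Maml1 by 0.19 (adjusted p of 0.329 or more), and Hey1 was dim on every untreated array.

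In irradiated thymocytes, 2 of the 9 genes passed between KO and WT, both higher in KO. Of all genes 14.9% passed, 8.12% higher in KO, and for 25.2% the arrays did not overlap. Notch2 had 10.53, 10.93 and 10.60 in KO against 10.12, 10.39 and 10.26 in WT. The lowest KO array lay above the highest WT array. The difference was 0.43 ± 0.11 (1.35-fold, adjusted p = 0.0122), and without irradiated WT array 1 it was 0.36 (adjusted p = 0.056). Of its 32 probe sets 31 were on average higher in KO and 3 passed, where 7.34% of all probe sets passed. Dtx1 had 9.29, 9.17 and 9.12 in KO against 8.97, 8.81 and 8.79 in WT, again without overlap. The difference was 0.34 ± 0.09 (1.27-fold, adjusted p = 0.0144), and it did not pass without irradiated WT array 3 (0.31, adjusted p = 0.0627) or irradiated KO array 1 (0.29, adjusted p = 0.0744). Nrarp went the other way without passing, with 7.99, 7.80 and 8.14 in KO against 8.25, 8.54 and 8.18 in WT (-0.35 ± 0.13, adjusted p = 0.0814). Hey1 differed by -0.30, Hes1 by 0.16, Notch3 by -0.03, Hes5 by -0.01, Rbpj by -0.07 and Maml1 by -0.06 (adjusted p of 0.144 or more). None of the KO against WT calls in thymocytes passed with all 20 arrays in one fit.

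Markers of other cells and stages differed between the KO and WT thymocytes as well. Summed macrophage and dendritic cell markers were 13.02 to 13.06 in untreated KO against 12.55 to 12.60 in untreated WT arrays, and 11.81 to 12.12 in irradiated KO against 10.87 to 11.09 in irradiated WT arrays. In each of the 2 settings 4 of the 6 tested were higher in KO. B-cell markers were higher in KO for 3 of 6 in untreated thymocytes, and 4 were higher and 1 lower in irradiated ones. Double-negative stage markers were 13.00 to 13.06 in untreated KO against 12.62 to 12.68 in untreated WT arrays, with 4 of 6 higher. In irradiated arrays they were 12.68 to 12.76 in KO against 12.43 to 12.65 in WT, with 2 higher and 2 lower. Granulocyte markers set untreated WT thymocytes apart: their sum was 9.25 to 9.28 in untreated KO against 12.14 to 12.38 in untreated WT arrays, with 6 of 6 lower in KO, and 9.49 to 9.55 in irradiated KO against 10.54 to 10.81 in irradiated WT arrays, with 4 of 6 lower. The part of these cells in the higher Notch2 and Dtx1 was not tested.

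The response to irradiation was set against itself between the genotypes, a comparison that also holds the difference in Gfi1 probe sets between the KO groups. None of the 9 genes passed this test of the difference, and 1.88% of all genes passed. Hey1 came nearest, with a difference in response, KO minus WT, of -0.62 ± 0.20 (limma, adjusted p = 0.153), in which the untreated values lie below the dim level. The others lay between -0.27 for Dtx1 and 0.11 for Hes1 (adjusted p of 0.441 or more). For Dtx1, Hes1 and Notch2, which passed in both genotypes, the test of the difference did not pass either.

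The tumours were set against normal thymocytes among WT mice, whose untreated arrays hold the granulocyte markers just described. Those markers summed to 9.33 to 9.45 in WT ENU and 9.71 to 9.85 in WT Notch tumours against 12.14 to 12.38 in WT untreated thymocytes, and 6 of 6 were lower in each tumour kind. Markers of the double-positive stage summed to 13.87 to 14.36 in WT ENU and 12.60 to 14.76 in WT Notch tumours against 15.68 to 15.74 in WT untreated thymocytes, with 1 of 5 lower in ENU and 2 of 5 in Notch tumours. Over all arrays that sum was 11.89 to 14.76 in tumours and 15.35 to 15.74 in thymocytes, without overlap. The part of these cells in the differences that follow was not tested. In WT ENU tumours 4 of the 9 genes were higher than in WT untreated thymocytes and none lower, and 20.1% of all genes passed, with 9.87% of all genes higher. They were Dtx1, Hes1, Notch3 and Nrarp, that is, 3 genes listed here as targets and the receptor Notch3. In WT Notch tumours 1 of the 9, Dtx1, was higher, and 7.68% of all genes passed, with 2.14% of all genes higher. Without KO Notch tumour 2, which shares in the spread of the fit, the 4 ENU calls held, with adjusted p from 7.91e-05 for Dtx1 to 0.0145 for Nrarp, and Maml1 passed as lower.

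Dtx1 had 12.54, 12.16 and 11.70 in WT ENU tumours and 12.64 and 11.13 in WT Notch tumours, against 9.70 and 9.75 in WT untreated thymocytes. The tumours were far above the thymocytes in both kinds. The difference was 2.41 ± 0.34 for ENU tumours (5.31-fold, adjusted p = 0.000327) and 2.16 ± 0.37 for Notch tumours (4.48-fold, adjusted p = 0.0039). The Notch tumour call was lost without untreated WT array 1 (2.14, adjusted p = 0.0553). Of the 15 probe sets 13 passed for ENU and 14 for Notch tumours, all higher. Over all probe sets 17.7% passed for ENU and 5.23% for Notch tumours.

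Hes1 had 10.03, 10.63 and 10.04 in WT ENU tumours and 10.62 and 8.90 in WT Notch tumours, against 7.87 and 7.79 in WT untreated thymocytes. WT Notch tumour 2 was the lowest of these 5 tumours and still above both thymocyte arrays. Of those, untreated WT array 2 (7.79) lay under its dim level of 7.91 and array 1 (7.87) just above its own, 7.85. The difference was 2.41 ± 0.56 for ENU tumours (5.3-fold, adjusted p = 0.0081), and without untreated WT array 1 or 2 it was 2.45 (adjusted p = 0.067) or 2.36 (adjusted p = 0.0692). For Notch tumours it was 1.93 ± 0.61 and did not pass (adjusted p = 0.0685). It passed there once KO Notch tumour 2 (adjusted p = 0.00603), KO Notch tumour 1 (adjusted p = 0.00606) or WT Notch tumour 2 (2.79, adjusted p = 0.0251) was left out of the fit. All 4 probe sets passed for ENU tumours, by 1.84 to 4.06, where 17.7% of all probe sets passed. For Notch tumours 1 of 4 passed, where 5.23% of all probe sets did. Only 1 of the 4 was bright enough to test among thymocytes. The others entered this test through the tumours, where they are high, and are no separate support.

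Notch3 had 11.56, 10.83 and 10.54 in WT ENU tumours and 10.30 and 9.44 in WT Notch tumours, against 9.09 and 9.17 in WT untreated thymocytes. The difference was 1.84 ± 0.48 for ENU tumours (3.59-fold, adjusted p = 0.0143) and 0.74 ± 0.52 for Notch tumours (adjusted p = 0.414). The ENU call was lost without untreated WT array 1 (1.80, adjusted p = 0.106) or 2 (1.89, adjusted p = 0.0848). Of its 29 probe sets 17 passed for ENU tumours, where 17.7% of all probe sets passed. All 29 were on average higher, by 0.57 to 3.08. Among thymocytes 22 of the 29 were bright enough to test, and the others entered this test through the tumours. Notch3 is also a known gene of pericytes and smooth muscle. Summed markers of these cells were 11.85 to 12.95 in WT ENU tumours against 10.49 to 10.63 in WT untreated thymocytes. Of the 4 tested, 1 was higher, Pdgfrb, with 11.22, 11.18 and 12.63 in WT ENU tumours against 7.67 and 7.68 in WT untreated thymocytes; Tagln and Rgs5 were dim on every array. The part of these cells in the result was not tested.

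Nrarp had 9.41, 9.77 and 9.85 in WT ENU tumours and 8.01 and 7.44 in WT Notch tumours, against 8.22 and 7.77 in WT untreated thymocytes. It was high in the ENU tumours, and in the Notch tumours its values overlapped those of the thymocytes. The difference was 1.68 ± 0.57 for ENU tumours (3.21-fold), at the edge of the threshold (adjusted p = 0.0499). For Notch tumours it was -0.27 ± 0.62 (adjusted p = 0.83). Untreated WT array 2 (7.77) was under the dim level. Of the 3 Nrarp probe sets 1 passed for ENU tumours, where 17.7% of all probe sets passed, with differences from 0.44 to 2.75. None passed for Notch tumours. None was bright enough to test among thymocytes, so they entered this test through the tumours and are no separate support. The ENU call was lost in 15 of the 20 fits that left out 1 array, with adjusted p up to 0.261 without untreated WT array 2 (1.45), and under 6 of the other alternatives. Maml1 had 9.59, 9.40 and 9.47 in WT ENU tumours and 9.49 and 9.44 in WT Notch tumours, against 10.01 and 9.78 in WT untreated thymocytes. Its difference was -0.41 ± 0.15 (adjusted p = 0.0616) for ENU and -0.43 ± 0.16 (adjusted p = 0.117) for Notch tumours. The ENU difference also passed without KO ENU tumour 1 (adjusted p = 0.0391) or 3 (adjusted p = 0.0353), and with a further quantile normalization (adjusted p = 0.0371). Leaving out a tumour labelled KO cannot change this difference between WT groups, which stayed at -0.41. It changes only the spread and the genes of the fit. Rbpj differed by 0.01 ± 0.21 for ENU and 0.12 ± 0.22 for Notch tumours, and Notch2 by -0.15 ± 0.48 and -0.09 ± 0.53. Hes5 differed by 0.01 ± 0.10 for ENU and 0.25 ± 0.11 for Notch tumours (adjusted p = 0.21), and Hey1 was dim on all of these arrays.

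**Figure D3:**
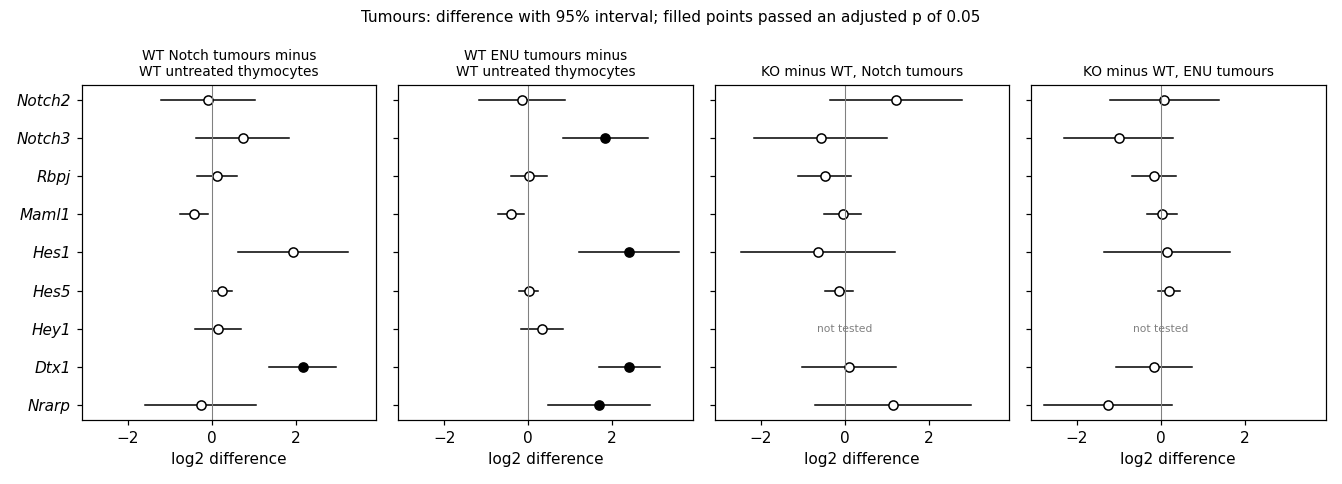
Log2 difference (x axis) with its 95% interval for each gene (y axis) in 4 comparisons; filled points passed an adjusted p of 0.05. Dtx1 was filled at 2.16 and 2.41 in the panels of WT tumours against WT thymocytes, while no gene was filled between KO and WT tumours, where the intervals were wide; Hey1 was too dim to test there.

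**Figure D4:**
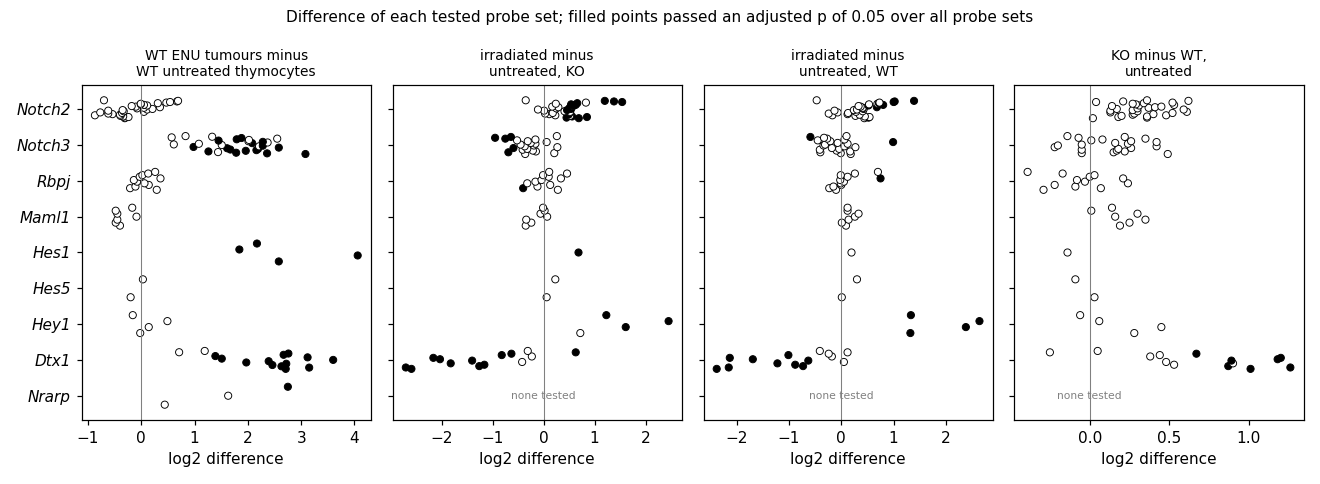
Log2 difference (x axis) of each tested probe set (points) of the 9 genes (y axis) in 4 comparisons; filled points passed an adjusted p of 0.05 over all probe sets. In WT ENU tumours all 29 Notch3 and all 4 Hes1 probe sets lay to the right of 0, and after irradiation the Dtx1 probe sets spread from -2.70 to 0.63 in KO and from -2.38 to 0.12 in WT.

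Between tumours labelled KO and WT, 8 of the 9 genes could be tested and none passed. Among ENU tumours 0% of 13025 genes passed, and 1782 had an unadjusted p under 0.05. Among Notch tumours 0.0154% passed. Notch3 had 9.88, 10.55 and 9.46 in KO ENU tumours against 11.56, 10.83 and 10.54 in WT ENU tumours, a difference of -1.01 ± 0.57 (adjusted p = 0.394, 95% interval -2.30 to 0.28). All 29 Notch3 probe sets were on average lower in KO, with differences from -1.66 to -0.29, but they are read on the same arrays and are not independent. Nrarp had 8.05, 7.38 and 9.81 in KO ENU tumours against 9.41, 9.77 and 9.85 in WT ENU tumours, a difference of -1.27 ± 0.66 (adjusted p = 0.381). KO ENU tumour 3 was within the WT range for Nrarp and KO ENU tumours 1 and 2 were below it. Dtx1, with 11.92, 11.92 and 12.07 in KO ENU against 12.54, 12.16 and 11.70 in WT ENU tumours, and Hes1, with 9.94, 10.50 and 10.72 against 10.03, 10.63 and 10.04, overlapped. Notch2 differed by 0.08, Hes5 by 0.18, Rbpj by -0.16 and Maml1 by 0.02 (adjusted p of 0.43 or more).

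Among Notch tumours, the differences between KO and WT turned on KO Notch tumour 2. Without it the KO Notch group has 1 array, which is assumed to vary like the other groups in each value given without that tumour. Notch2 was at 10.06 in KO Notch tumour 1 and 11.90 in KO Notch tumour 2, the highest of all 20 arrays, against 9.83 and 9.69 in WT Notch tumours. Its difference was 1.22 ± 0.69 (adjusted p = 0.807), and 0.30 without KO Notch tumour 2 (adjusted p = 0.996). Notch3 was at 10.39 and 8.20 in KO Notch tumours 1 and 2, the second value being the lowest of all 20 arrays, against 10.30 and 9.44 in WT, and its difference was -0.57 ± 0.69 with and 0.52 without KO Notch tumour 2. Hes1 was at 10.42 and 7.84 in KO against 10.62 and 8.90 in WT, with differences of -0.63 ± 0.80 and, without that tumour, 0.66. In both genes the sign changed with this tumour, and in neither case did the difference pass. Nrarp was at 9.90 and 7.86 in KO against 8.01 and 7.44 in WT, and differed by 1.15 ± 0.81 with it and by 2.17 without it (adjusted p = 0.996). Dtx1 was at 12.45 and 11.55 in KO against 12.64 and 11.13 in WT, so that it stayed above all thymocyte arrays even in KO Notch tumour 2. Dtx1 differed by 0.11, Rbpj by -0.47, Hes5 by -0.13 and Maml1 by -0.05 (adjusted p of 0.817 or more), and without that tumour by 0.56, -0.12, -0.15 and 0.07.

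**Figure D5:**
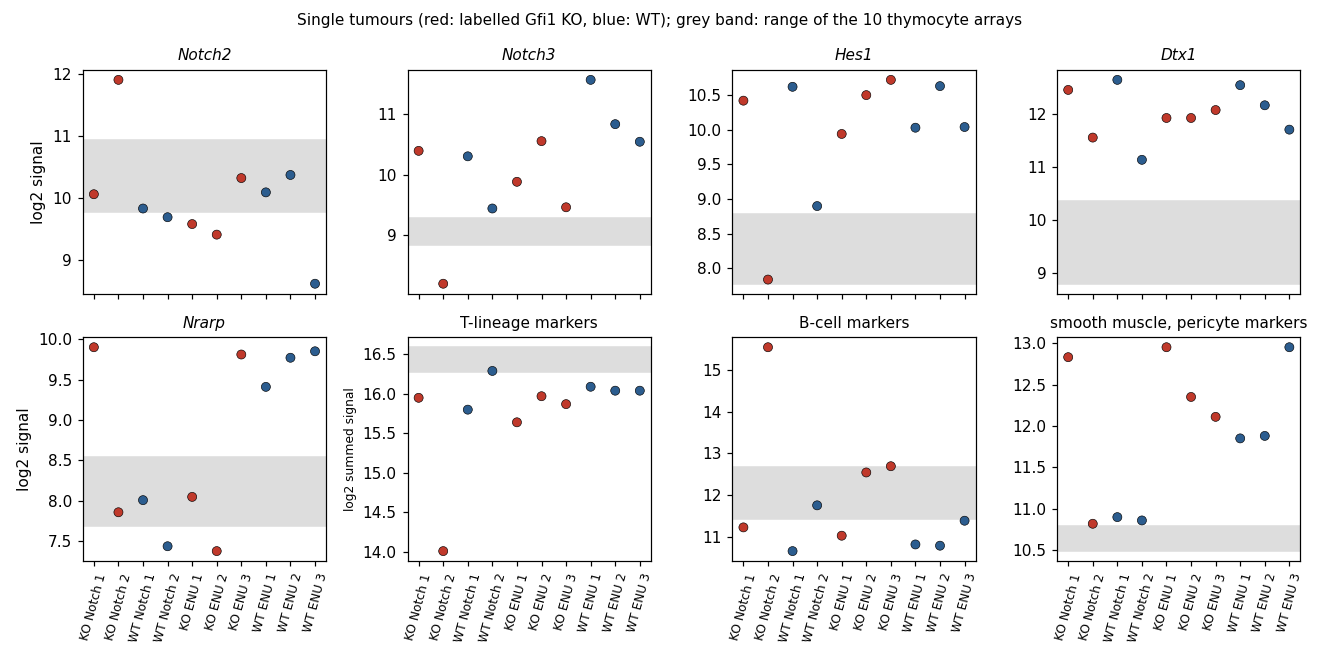
Log2 signal of 5 genes and log2 summed signal of 3 marker lists (y axes, own range per panel) in each of the 10 tumours (x axis); red marks tumours labelled Gfi1 KO, blue WT, and the grey band is the range of the 10 thymocyte arrays. KO Notch tumour 2 had the highest Notch2 (11.90), the lowest Notch3 (8.20) and Hes1 (7.84), the highest B-cell sum (15.55) and the lowest T-lineage sum (14.01).

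The Notch transgene was compared with ENU alone within each genotype, and none of the 8 tested genes passed. In KO tumours 0.107% of all genes passed, and in WT tumours 0.023%. Nrarp showed the widest gap, with 8.01 and 7.44 in WT Notch tumours against 9.41, 9.77 and 9.85 in WT ENU tumours, and no overlap, as for 34.8% of all genes. Its difference of -1.95 ± 0.74 did not pass (adjusted p = 0.603). Notch3 had 10.30 and 9.44 in WT Notch against 11.56, 10.83 and 10.54 in WT ENU tumours, a difference of -1.11 ± 0.63 (adjusted p = 0.714). Hes1 and Dtx1, with differences of -0.47 ± 0.73 and -0.25 ± 0.45, overlapped between the WT tumour types. Notch2 differed by 0.07, Rbpj by 0.11, Hes5 by 0.23 and Maml1 by -0.02 there (adjusted p of 0.713 or more). In KO tumours Hes1 differed by -1.25 ± 0.73 (adjusted p = 0.799), and by 0.03 without KO Notch tumour 2. Notch2 differed by 1.21 and Notch3 by -0.67 there, and without that tumour by 0.29 and 0.43. Nrarp differed by 0.47, Dtx1 by 0.03, Rbpj by -0.20, Hes5 by -0.08 and Maml1 by -0.09, and without that tumour by 1.49, 0.47, 0.14, -0.10 and 0.02. None of them passed. The KO effect was also compared between the tumour types. None of the 8 passed and 0% of all genes did. Nrarp had a difference between the effects of 2.42 ± 1.05 (adjusted p = 0.68), or 3.44 without KO Notch tumour 2 (adjusted p = 0.273). The standard errors of the 5 genes that vary most among tumours were 0.40 to 0.81 in KO against WT, and their 95% intervals held differences as far as -2.78 in ENU and 3.01 in Notch tumours (both Nrarp).

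The genes whose pattern was most like that of each member were ranked by the lower of the Pearson correlation over the 10 thymocyte arrays and that over the 10 tumour arrays, among 12346 genes. These are descriptions over arrays that share groups and amplification, and KO Notch tumour 2 is one of the 10 tumours. Notch3 was most like Fastkd5 (0.90), Impad1 (0.87) and Tpx2 (0.86). Hes1 was most like Enc1 (0.85), Lmo4 (0.81) and Rnf125 (0.80), and Dtx1 like Adam19 (0.87), Sh3pxd2a (0.84) and Ppm1e (0.81). Hey1, itself too dim to be tested in tumours, was most like Ep300 (0.89), Tnni3k (0.88) and Creb3l2 (0.85). It lay under the dim level on every tumour array, so its correlation there ranks dim values. Nrarp was most like Rfc3 (0.84), Notch2 like Plekhm3 (0.79), Rbpj like Sfrs4 (0.83), Maml1 like Map3k11 (0.74) and Hes5 like Cd164l2 (0.86). The members were not most like each other in any of these lists. Over the 9 tumours without KO Notch tumour 2 the likeness to these genes was 0.83 for Notch3 and Fastkd5, 0.84 for Hes1 and Enc1, 0.86 for Dtx1 and Adam19, 0.76 for Hey1 and Ep300, 0.84 for Nrarp and Rfc3, 0.74 for Rbpj and Sfrs4, 0.78 for Maml1 and Map3k11 and 0.86 for Hes5 and Cd164l2. For Notch2 and Plekhm3 it was 0.23. The most alike were then Rundc3b (0.81) for Notch2, Clasp1 (0.84) for Notch3, Hapln3 (0.86) for Hey1, Ipo7 (0.76) for Rbpj and Cpne6 (0.90) for Hes5, and the first gene did not change for Hes1, Dtx1, Nrarp and Maml1. Hes1 and Notch3 correlated at 0.70 over the 10 tumours, at 0.28 over 9 without KO Notch tumour 2, and at -0.88 over the thymocyte arrays.

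Of 68 other genes of the pathway, 66 were on the array under their names and 64 were tested. After irradiation 9 rose and 15 fell in KO thymocytes, and 9 rose and 13 fell in WT thymocytes. That is 37.5% of the 64 in KO, where 38.8% of all genes passed, and 34.4% in WT, where 34.6% did. Of 12 targets in T cells 7 were lower and 1 higher in KO, where 23.7% of all genes were lower, and 5 were lower and 1 higher in WT, where 21.7% were. Myc, the growth regulator, fell by 1.79 in KO (adjusted p = 4.43e-09) and by 1.76 in WT (adjusted p = 5.47e-09). Ptcra, the pre-T-cell receptor alpha chain, fell by 1.23 in KO and 0.63 in WT, Gata3 by 1.17 in KO and 1.07 in WT, and Ccnd3 by 1.19 in KO and 0.97 in WT. Il2ra differed by -0.78 in KO. Of the Fringe genes, whose enzymes add sugars to Notch receptors and so tune their choice of ligand, Lfng fell by 0.75 in KO. Mfng, another Fringe gene, differed by -0.56 in WT. Ep300 rose by 0.74 ± 0.11 in WT (adjusted p = 0.000109). Notch1 rose in WT, at 11.46 in irradiated against 10.94 in untreated thymocytes (0.52 ± 0.10, adjusted p = 0.00116), and not in KO (0.09 ± 0.10, adjusted p = 0.508). The difference between these responses did not pass (adjusted p = 0.18). It passed for 2 of the 64 genes (3.12%, where 1.88% of all genes passed), Dtx3 (1.09 ± 0.15, adjusted p = 0.000673) and Il2ra (-0.71 ± 0.14, adjusted p = 0.0124).

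Between KO and WT, 6 of the 64 genes were higher and 2 lower in untreated thymocytes, and 4 were higher and 5 lower in irradiated thymocytes. These are 12.5% and 14.1% of the list, where 12.3% and 14.9% of all genes passed. Tle1, a Groucho-type corepressor that HES proteins use, averaged 8.97 in untreated KO against 7.87 in untreated WT (1.10 ± 0.14, adjusted p = 3.84e-05) and 9.20 in irradiated KO against 8.12 in irradiated WT thymocytes (1.08 ± 0.12, adjusted p = 3.03e-06). Jag1, a Notch ligand, was higher by 0.44 ± 0.13 in untreated (adjusted p = 0.0316) and 0.65 ± 0.11 in irradiated KO thymocytes (adjusted p = 0.000258). Il7r, the receptor for interleukin 7, was higher by 0.48 ± 0.12 in untreated and 0.60 ± 0.10 in irradiated KO thymocytes. Tle4 was higher by 0.70 ± 0.13 and Numb by 0.39 ± 0.11 in untreated KO thymocytes. Of the targets in T cells, 3 were lower in irradiated KO thymocytes: Ptcra (-0.48 ± 0.11, adjusted p = 0.0062), Bcl11b (-0.46 ± 0.09, adjusted p = 0.00212) and Ccnd3 (-0.44 ± 0.09, adjusted p = 0.00249). Dtx3, another Deltex ligase, averaged 9.20 in untreated KO against 10.34 in untreated WT thymocytes (-1.14 ± 0.11, adjusted p = 2.56e-06).

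In WT ENU tumours 5 of the 64 genes were higher and 10 lower than in WT untreated thymocytes, 23.4% of the list, where 20.1% of all genes passed. Notch1 averaged 12.77 in WT ENU tumours and 13.15 in WT Notch tumours, against 10.94 in WT untreated thymocytes, differences of 1.83 ± 0.47 (adjusted p = 0.0139) and 2.21 ± 0.52 (adjusted p = 0.0192). The Notch tumours carry the transgene labelled Notch1-CT, and whether the probe sets of Notch1 read it was not tested. Between WT Notch and WT ENU tumours Notch1 differed by 0.38 ± 0.62 (adjusted p = 0.892). Maml3, a Mastermind coactivator, and Mib1, a ligase that acts on Notch ligands, rose in ENU tumours by 1.32 ± 0.39 and 1.16 ± 0.22. Tle4 fell by 3.25, Lfng by 1.92 and Tle1 by 1.29 there. In WT Notch tumours 2 genes were higher and 2 lower, 6.25% of the list, where 7.68% of all genes passed, namely Notch1, Kat2a (0.80 ± 0.20), Ccnd3 (-0.94 ± 0.25) and Rfng (-0.58 ± 0.16). No gene of the list passed between KO and WT tumours or between Notch and ENU tumours.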

How the data were processed

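Total RNA of 20 mouse samples was amplified with a NuGEN kit, labelled with biotin and hybridised to arrays, per the labels' protocols. The authors deposited 1 table of 182058 probe sets by 20 arrays, with values between 3.37 and 15.01, a range from which they were taken to be log2 signal. No source used here gives the log base or how background, normalization and probe set summary were handled. Gene names came from the old platform annotation, under which 167016 probe sets name 1 gene, 3388 several and 11654 none, and those naming 1 gene were used.

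Probe sets were expressed relative to their mean across the 20 arrays, and the median over a gene's probe sets, plus their mean level, gave its value. Genes entered a test if they exceeded the 40th percentile of genes on at least 2 arrays of the fit. Tests used limma 3.58.1 (lmFit, eBayes) in R 4.3.3 with Benjamini-Hochberg adjustment over all genes tested and a threshold of 0.05. Thymocyte comparisons were fitted on 10 arrays, tumour comparisons on 10, and tumours against thymocytes on 20, with 1 mean per group. The script was tested on simulated data. Values written a ± b are log2 differences with standard errors unless marked SD. Marker lists are given as log2 of the summed signal. The labels do not say that replicates are separate mice, so the p-values measure the spread between these arrays, which may be technical. With 2 or 3 arrays per group, precision is limited. Where leaving out an array leaves a group with 1, that array is assumed to vary like the other groups. The members and lists were chosen with earlier results of these data known. All 9 members are given in each comparison between 2 groups where they could be tested and lay above the dim level in one of them, and of the other pathway genes up to 6 per comparison, those that passed without overlap of the groups, by size; Notch1 is also given because of the name of the transgene, and the ranges over all tumours and all thymocytes were added after their values were seen. Promoter sequences come from RefSeq tables of GRCm38.p6. Alternatives were a further quantile normalization, no filter, the mean of probe sets, repeated probe sets left out, robust eBayes with a trend, the replicate number as a block, other sets of arrays in the fit, single probe sets, and each array left out. Python 3.11.15 and matplotlib 3.10.9 made the figures.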

Additional observations from a re-analysis of the deposited data

How the results depend on the processing

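No difference of a member that passed changed direction under any alternative run. With all 20 arrays in one fit, the members that passed between KO and WT were 0 in irradiated and 0 in untreated thymocytes, and between irradiated and untreated thymocytes 1 in KO and 1 in WT (Hey1 in both). That fit shares the larger spread of the tumours. With only the arrays of the groups compared, 1 (Notch2) passed between KO and WT in irradiated thymocytes, 2 (Dtx1 and Notch2) in untreated thymocytes, and 0 between WT Notch tumours and WT untreated thymocytes. By single probe sets, a member counted when as many of its tested probe sets passed one way as did not, or more. Then 0 passed between KO and WT in irradiated thymocytes, and after irradiation 3 passed in KO (Hes1, Hey1 and Dtx1) and 2 in WT (Hey1 and Dtx1). Leaving out 1 array at a time gave 1 to 2 members between KO and WT in irradiated and 1 to 2 in untreated thymocytes, 4 to 5 after irradiation in KO and 3 to 4 in WT, 1 to 5 for WT ENU tumours and 0 to 2 for WT Notch tumours against WT untreated thymocytes. The other 6 comparisons gave 0 to 0. The cause of these changes was not tested. Over 26 pairs of samples with the same replicate number, the correlation of their deviations from the group mean ran from -0.47 to 0.25, with 6 above 0.1. Of the 6 irradiated arrays 2, and of the 6 ENU tumours 1, correlated best with their own number. Where both groups hold 2 arrays, the 2 pairs give the same value by construction. With 2 or 3 arrays per group these values cannot decide whether replicates were paired. With the replicate block, 3 members passed for WT ENU tumours against WT untreated thymocytes, as Nrarp was lost (1.48, adjusted p = 0.0773), and the counts of the other comparisons were as without it. Over all genes, the block gave 1358 calls against 1566 between KO and WT in untreated thymocytes, 1668 against 1903 in irradiated thymocytes, 0 against 2 in Notch tumours, 0 against 14 between Notch and ENU tumours in KO and 1 against 3 in WT.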
